A study of Homo sapiens with 11 samples.

Results

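The kinesin superfamily was described at the mRNA level in 2 human pancreatic cancer lines treated with small interfering RNA (siRNA) against MYEOV. Members were the protein-coding genes of GENCODE release 29 whose symbol is KIF followed by a digit, or KIFC1 to KIFC3, with at least 1 CPM (counts scaled to the size of the library) in 2 or more libraries. The adaptor genes KIFAP3 and KIFBP are not motors and were left out. Of 42 kinesin symbols among the 58735 genes listed, 35 passed, against 15748 of all listed genes that passed the same level. KIF19, KIF25, KIF26B, KIF2B, KIF4B, KIF5C and KIF6 did not pass. KIF12, the lowest member inside the limit, reached 1 CPM in 3 libraries with a highest value of 1.47 CPM, and KIF4B, just outside, reached it in 1 library with 1.01 CPM.

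The groups were AsPC-1 cells with MYEOV siRNA (n = 3), AsPC-1 control cells (n = 2), PANC-1 cells with MYEOV siRNA (n = 3) and PANC-1 control cells (n = 3). AsPC-1 is an established line grown from the ascites of a patient with pancreatic adenocarcinoma, and PANC-1 was established from a primary pancreatic ductal carcinoma. The lines were kept in different media, RPMI for AsPC-1 and DMEM for PANC-1, both with fetal bovine serum. RNA was taken 48 hours after transfection with a lipofectamine reagent. The labels name 2 siRNAs against MYEOV without tying either to a library, and they describe the controls as untreated while the protocol lists a negative control siRNA, so neither the siRNA of a library nor the treatment of the controls could be settled. The labels do not state whether replicates were separate cultures. The p-values therefore rest on library-to-library spread only, and that spread may be technical.

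Kinesins are motor proteins that use ATP to walk along microtubules or to take tubulin off microtubule ends. One set builds and elongates the mitotic spindle and divides the cell, and its mRNAs accumulate as cells approach mitosis. Another set carries vesicles, mitochondria, endosomes and ciliary cargo through cells that are not dividing, and a smaller set works in cilia or tunes microtubule growth. The rule named 6 mitotic kinesins (KIF11, KIF20A, KIF23, KIF2C, KIF4A and KIFC1), and the remaining members were placed by textbook role as 6 other mitotic kinesins, 14 transport kinesins and 9 kinesins of cilia or microtubule dynamics.

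The 11 libraries held 12113093 to 15066456 counts. Kinesins took 0.234% to 0.236% of the raw counts in AsPC-1 siRNA libraries and 0.256% to 0.259% in AsPC-1 controls. In PANC-1 they took 0.312% to 0.314% in siRNA libraries and 0.316% to 0.333% in controls. Mitochondrial genes took 13.16% to 13.94% of the raw counts in AsPC-1 libraries and 6.21% to 6.82% in PANC-1 libraries. With libraries scaled by TMM, kinesins summed to 2803 and 2784 CPM in AsPC-1 controls against 2929, 3066 and 2897 CPM in PANC-1 controls. MYEOV itself stood at 42.9, 50.7 and 48.1 CPM in AsPC-1 siRNA libraries against 131 and 129.5 CPM in AsPC-1 controls, and at 37.6, 35.8 and 39.7 CPM in PANC-1 siRNA libraries against 75.0, 68.5 and 64.3 CPM in PANC-1 controls. PANC-1 control replicate 2 stood apart: its chi-square per degree of freedom against the other PANC-1 controls was 5.97 and 4.87, compared with 1.67 to 3.69 for every other pair of replicates. Of the ductal markers KRT8, KRT18, KRT19, KRT7 and EPCAM, the sum was 18330 to 18840 CPM in AsPC-1 siRNA libraries and 17970 to 18160 CPM in AsPC-1 controls, and 1919 to 1949 CPM in PANC-1 siRNA libraries and 2254 to 2523 CPM in PANC-1 controls. KRT7 averaged 1.56 ± 0.17 CPM in AsPC-1 controls and 1.46 ± 0.331 CPM in PANC-1 controls, and EPCAM 976 ± 54.2 and 5.87 ± 0.919 CPM in the same groups (SD, n = 2 and 3). The sum of 6 leukocyte markers did not pass 32.9 CPM in any AsPC-1 library and 1.8 CPM in any PANC-1 library. LYZ averaged 28.75 CPM in AsPC-1 siRNA libraries and 29.4 CPM in AsPC-1 controls, and was at 0 in PANC-1. CD3E was at 0 in every library. The sum of 5 endothelial markers did not pass 4.53 CPM in any library. ERG averaged 3.53 CPM in PANC-1 siRNA libraries and was at 0 in AsPC-1. The sum of 6 fibroblast markers was 1.90 to 2.38 CPM in AsPC-1 siRNA libraries and 1.52 to 1.77 CPM in AsPC-1 controls, and 46.9 to 48.3 CPM in PANC-1 siRNA libraries and 33.5 to 40.4 CPM in PANC-1 controls, without overlap in either line. COL1A1 was higher in PANC-1 siRNA cells (log2 ratio 0.33, edgeR adjusted p = 0.0193), while DCN and FAP were at 0 in every PANC-1 library. The part of these markers in the kinesin values was not tested.

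The control cells of both lines were compared first, to show which kinesins each line uses. The kinesin-1 heavy chain KIF5B, the general motor for organelles and vesicles, was the most abundant kinesin mRNA per length in both. Of the 6 mitotic kinesins of the rule, 4 were lower and 1 higher in AsPC-1 controls. Of the 6 other mitotic kinesins, 1 was lower and 3 higher. Among all tested genes 41.2% were called lower and 35.9% higher. The neuronal motor KIF1A had counts in PANC-1 controls and none in AsPC-1 controls. Levels between genes are given as CPM per kilobase of annotated exon.

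KIF5B averaged 65.8 ± 0.606 CPM per kb in AsPC-1 controls (SD, n = 2), followed by KIF11 with 44.4 ± 0.892 and KIF22 with 38.6 ± 0.724 CPM per kb. The library ranges of these genes did not overlap with that of the next gene in the order. In PANC-1 controls (n = 3) KIF5B averaged 50.0 ± 5.19 CPM per kb, followed by KIFC1 with 40.4 ± 1.18 and KIF11 with 38.3 ± 2.99 CPM per kb. From KIFC1 through KIF11, KIF2C, KIF20A and KIF4A each range overlapped with the next, so that part of the PANC-1 order was not resolved. At the low end, KIF1A and KIF26A had no count in AsPC-1 controls and KIF12 had 0.0125 ± 0.0177 CPM per kb, while the lowest in PANC-1 controls were KIF21B with 0.119 ± 0.0106, KIF12 with 0.276 ± 0.0761 and KIF13B with 0.305 ± 0.0447 CPM per kb, of which KIF12 and KIF13B overlapped.

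**Figure D1:**
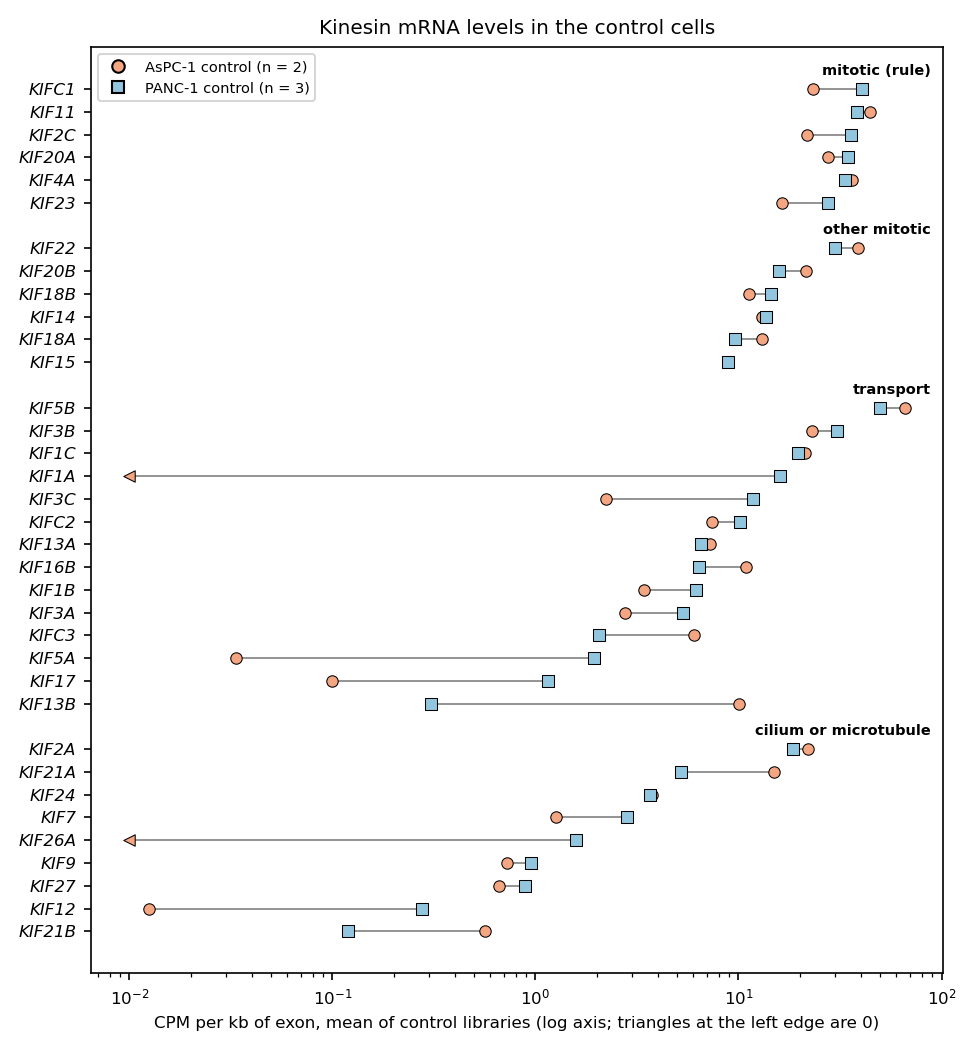
Mean level of each kinesin mRNA in AsPC-1 control libraries (circles) and PANC-1 control libraries (squares), in CPM per kb of exon on a log axis, grouped by role; triangles at the left edge stand for no count. KIF5B has the highest mean in both lines (65.8 in AsPC-1 and 50.0 CPM per kb in PANC-1), and KIF1A and KIF26A have a triangle for AsPC-1 controls.

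Between the control cells, edgeR's quasi-likelihood test with Benjamini-Hochberg adjustment over all tested genes called 11 of 35 kinesins higher and 16 lower in AsPC-1 at an adjusted p under 0.05. Among all 16680 genes tested, 35.9% were called higher and 41.2% lower, so a call was common in this comparison. KIF1A, KIF5A, KIF12, KIF17 and KIF26A entered the family only through PANC-1 libraries, so the rule itself favoured a lower level in AsPC-1. Of the 30 others, 11 were higher, 11 lower and 8 not called. Line, culture medium and any difference in harvest cannot be told apart here, and in bulk RNA fewer cells in a state and less RNA per cell cannot be told apart either.

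Several transport kinesins differed strongly between the control cells. KIF13B, which links cargo to the scaffold DLG1, had 117 and 107 CPM in AsPC-1 controls against 3.45, 2.86 and 3.85 CPM in PANC-1 controls, a log2 ratio of 5.04 (SE 0.10, edgeR adjusted p = 3.36e-21). The groups were far apart. KIFC3, a minus-end motor of epithelial junctions and apical transport, had 55.6 and 60.9 CPM in AsPC-1 controls against 18.7, 18.9 and 21.6 CPM in PANC-1 controls, a log2 ratio of 1.56 (SE 0.08, edgeR adjusted p = 5.77e-14). KIF16B, the early endosome motor, was also higher (log2 ratio 0.76, SE 0.06, edgeR adjusted p = 4.33e-10). In the other direction, KIF3C, a kinesin-2 motor best known from neurons, had 13.3 and 15.1 CPM in AsPC-1 controls against 76.9, 72.9 and 75.5 CPM in PANC-1 controls (log2 ratio -2.41, SE 0.08, edgeR adjusted p = 7.09e-17).

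KIF1A, which carries synaptic vesicle precursors in neurons, had 0 counts in the AsPC-1 controls against 282, 252 and 268 CPM in the PANC-1 controls. Against the limit that 3 counts over both AsPC-1 controls would set, it was at least 2180-fold lower in AsPC-1. KIF26A, an atypical kinesin without motor activity, was also at 0 counts and at least 87.1-fold lower. KIF12 had 1 count in all in AsPC-1 controls and 38 in PANC-1 controls, a ratio of 20.8 (95% exact interval 3.51 to 841, counting error only). KIF1A, KIF26A and KIF12 entered the family only through PANC-1 libraries, which favoured this direction. Their ratios and the interval are therefore a description and not a test.

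Among the 6 mitotic kinesins of the rule, 1 was higher and 4 were lower in AsPC-1 controls, against 35.9% and 41.2% of all tested genes. KIF11 was higher by 0.21 (log2, SE 0.06, edgeR adjusted p = 0.00248). KIF23, KIFC1 and KIF2C stood at 59.1%, 57.8% and 61.3% of the PANC-1 control level, and KIF20A at 79.5%, by edgeR adjusted p of 2.93e-05 or less. KIF4A was not called (log2 ratio 0.10, SE 0.05). Of the other mitotic kinesins KIF18A, KIF20B and KIF22 were higher and KIF18B lower, while KIF14 and KIF15 were not called. Over all 12 mitotic kinesins 4 were higher and 5 lower, with a median log2 ratio of -0.04.

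MYEOV siRNA was then compared with control within each line. Every called kinesin of the mitotic groups was lower with siRNA in these comparisons. Of the 6 in the rule, 5 fell in AsPC-1 siRNA cells and 4 fell in PANC-1 siRNA cells, with 0 rising in either line. KIF11, KIF20A, KIF23 and KIFC1 fell in both. This depends on how roles were placed, with earlier results of these data known. KIF2A, placed with microtubule dynamics though also used at spindle poles, was called higher in AsPC-1 (log2 ratio 0.23, edgeR adjusted p = 0.00029). Over the whole family in AsPC-1, 5 members rose and 13 fell of 30 tested, against 16.6% of all 14304 tested genes called higher and 16.3% called lower. In PANC-1, 1 rose and 4 fell of 35 tested, against 4.16% of 14929 genes called higher and 4.92% called lower. The share of members called lower was above that of all genes in both lines, while the share called higher was near it in AsPC-1. KIF1A, KIF5A, KIF12, KIF17 and KIF26A had too few counts in AsPC-1 to be tested there.

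On GRCh38, in GENCODE release 29, KIF11 lies at chr10:92593286-92655395, KIF20A at chr5:138178719-138187715, KIF23 at chr15:69414246-69448427, KIF2C at chr1:44739818-44767767, KIF4A at chrX:70290090-70420832 and KIFC1 at chr6:33391536-33409924, each on the plus strand. KIF11 pushes the spindle poles apart by sliding antiparallel microtubules. KIF11 had 156, 162 and 173 CPM in AsPC-1 siRNA libraries against 219 and 212.5 CPM in AsPC-1 controls. In PANC-1 the values were 140.2, 144 and 140.5 CPM with siRNA against 174, 202 and 182 CPM in controls. The siRNA values were all under the control values of the same line. KIF11 thus stood at 75.0% of control in AsPC-1 (log2 ratio -0.41, SE 0.04, edgeR adjusted p = 2.71e-08) and at 76.1% in PANC-1 (-0.39, SE 0.06, edgeR adjusted p = 0.000924).

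KIF23 is the motor subunit of centralspindlin, the complex that organises the central spindle for cytokinesis. KIF23 had 77.0, 74.2 and 82.2 CPM in AsPC-1 siRNA libraries against 109 and 106 CPM in AsPC-1 controls. In PANC-1 it had 144.5, 144 and 146 CPM with siRNA against 173, 196 and 176 CPM in controls. The groups did not overlap in either line. The fall was to 71.8% of control in AsPC-1 (log2 ratio -0.48, SE 0.05, edgeR adjusted p = 3.8e-08) and to 79.8% in PANC-1 (-0.33, SE 0.06, edgeR adjusted p = 0.00259). KIF20A, which brings the chromosomal passenger complex to the central spindle, had 91.0, 96.2 and 90.8 CPM in AsPC-1 siRNA libraries against 110.5 and 108 CPM in AsPC-1 controls. In PANC-1 it had 108, 112 and 106 CPM with siRNA against 148, 133 and 132 CPM in controls, again without overlap in either line. KIF20A stood at 83.9% of control in AsPC-1 (log2 ratio -0.25, SE 0.05, edgeR adjusted p = 0.000125) and at 79.1% in PANC-1 (-0.34, SE 0.06, edgeR adjusted p = 0.0027).

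KIFC1, the minus-end motor that clusters extra centrosomes, had 72.9, 66.6 and 72.0 CPM in AsPC-1 siRNA libraries against 77.3 and 79.0 CPM in AsPC-1 controls. PANC-1 libraries had 116, 123 and 115 CPM with siRNA against 139.6, 133 and 133 CPM in controls. The groups lay close together but did not overlap. Its log2 ratio was -0.16 in AsPC-1 (SE 0.05, edgeR adjusted p = 0.0202) and -0.20 in PANC-1 (SE 0.05, edgeR adjusted p = 0.0329). KIF4A, the chromokinesin that sets the length of the central spindle, had 144, 148 and 149.5 CPM in AsPC-1 siRNA libraries against 167 and 159.8 CPM in AsPC-1 controls (log2 ratio -0.17, SE 0.04, edgeR adjusted p = 0.00196). In PANC-1 its values of 144, 145.3 and 135 CPM with siRNA met those of 156, 155 and 145.2 CPM in controls, and it was not called (-0.11, SE 0.05, edgeR adjusted p = 0.246). KIF2C, the centromere depolymerase, was called in neither line: it had 74.5, 75.5 and 83.7 CPM in AsPC-1 siRNA libraries against 82.2 and 76.9 CPM in AsPC-1 controls (-0.05, SE 0.06), and 124, 124 and 119 CPM in PANC-1 siRNA libraries against 130.5, 133 and 126 CPM in PANC-1 controls (-0.09, SE 0.05).

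**Figure D2:**
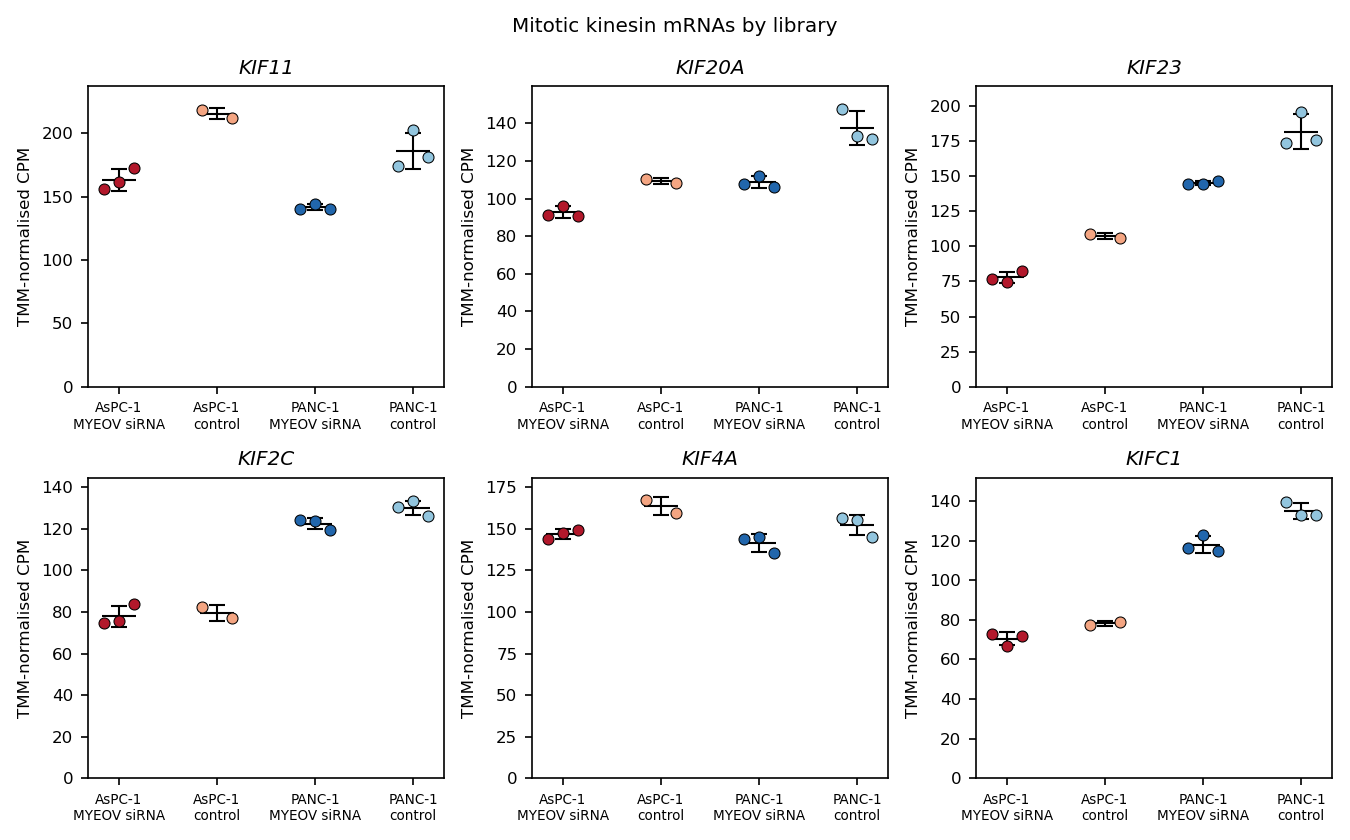
TMM-normalised CPM of the 6 mitotic kinesins in each library (points), with the group mean and SD (bars), for AsPC-1 MYEOV siRNA, AsPC-1 control, PANC-1 MYEOV siRNA and PANC-1 control. KIF11, KIF20A, KIF23 and KIFC1 have every siRNA point below every control point of their line, while KIF2C overlaps in AsPC-1 and KIF4A in PANC-1.

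AsPC-1 had 2 controls, so a fit without either of them rests on a single AsPC-1 control library. The calls of KIF11, KIF20A and KIF23 held in both lines under all alternative settings tried and without any single library. The call of KIFC1 did not: in AsPC-1 it was lost with DESeq2 (adjusted p = 0.103), in a single fit of all groups (0.0883) and without control replicate 1 (0.0685), control replicate 2 (0.168) or siRNA replicate 2 (0.103), over a range of adjusted p of 0.0113 to 0.168. In PANC-1 it was lost with upper-quartile scaling (edgeR adjusted p = 0.0567) and without siRNA replicate 1 (0.161), 2 (0.0502) or 3 (0.125) or control replicate 1 (0.0962) or 3 (0.0766), over a range of 0.0109 to 0.161. KIF4A lost its AsPC-1 call without control replicate 1 (edgeR adjusted p = 0.0642, range 0.000967 to 0.0642). KIF20A, KIF23, KIF2C, KIF4A and KIFC1 share exon bases with genes on the opposite strand. Whether the counting used strand is not known from the labels, so reads of the partners could not be told apart from theirs. KIF4A also has a near-identical copy, KIF4B.

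The start regions of these genes are shown because the promoters of genes that peak in late G2 and mitosis are known to carry a cell cycle genes homology region (CHR) downstream of CCAAT boxes, bound by the DREAM and MuvB complexes and by NF-Y. The CHR was searched as the hexamer TTTGAA, which appears in the printed strand as TTCAAA when it lies on the opposite strand, and as the palindromic hexamer TTTAAA. The CCAAT box was searched on both strands too, and a match on the opposite strand appears as ATTGG. Windows were the RefSeq promoter windows of build GRCh38.p14, 250 bases before to 50 after the first listed start. Of these, 130 bases from 110 before to 20 after the start are printed 5′ to 3′ with matches in capitals. The last sequence is that of KIF16B, a transport kinesin called higher in both lines, whose only match lies upstream of the printed stretch. KIF5B, also called higher in AsPC-1, has a CHR hexamer at -140 and a CCAAT box at -59 from the start. KIF2C, KIF15 and KIF18B hold a CHR hexamer and were called in neither line with siRNA. A link between motifs and response was not tested.
KIF11, chr10:92593020-92593149, plus strand: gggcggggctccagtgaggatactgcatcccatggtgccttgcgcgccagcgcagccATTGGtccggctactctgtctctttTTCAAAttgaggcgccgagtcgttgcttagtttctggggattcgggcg
KIF20A, chr5:138179002-138179131, plus strand: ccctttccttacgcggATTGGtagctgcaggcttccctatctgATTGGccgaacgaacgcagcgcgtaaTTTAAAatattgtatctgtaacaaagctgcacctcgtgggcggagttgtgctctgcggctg
KIF23, chr15:69414239-69414368, plus strand: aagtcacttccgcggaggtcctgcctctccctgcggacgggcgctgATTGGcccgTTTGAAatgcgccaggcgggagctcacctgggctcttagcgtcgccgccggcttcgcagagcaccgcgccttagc
KIF2C, chr1:44739727-44739856, plus strand: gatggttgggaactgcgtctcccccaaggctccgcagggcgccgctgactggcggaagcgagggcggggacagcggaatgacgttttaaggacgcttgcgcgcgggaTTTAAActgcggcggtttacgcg
KIF4A, chrX:70289994-70290123, plus strand: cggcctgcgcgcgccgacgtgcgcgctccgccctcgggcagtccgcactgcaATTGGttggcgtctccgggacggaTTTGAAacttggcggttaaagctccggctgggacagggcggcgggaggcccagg
KIFC1, chr6:33391713-33391842, plus strand: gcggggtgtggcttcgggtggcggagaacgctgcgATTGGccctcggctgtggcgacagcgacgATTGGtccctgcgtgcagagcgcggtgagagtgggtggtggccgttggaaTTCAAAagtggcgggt
KIF16B, chr20:16573429-16573558, minus strand: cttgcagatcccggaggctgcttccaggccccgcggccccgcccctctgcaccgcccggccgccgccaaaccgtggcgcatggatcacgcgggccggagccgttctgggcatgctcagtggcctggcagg

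A CHR hexamer was found in the windows of 6 of 6 mitotic kinesins of the rule and 5 of 6 other mitotic kinesins, the exception being KIF22. Among transport kinesins with a window in the table, 2 of 10 (KIF5B and KIF16B) held one, and 0 of 7 kinesins of cilia or microtubule dynamics did. Over all 14896 protein-coding windows the share was 19.3%. CCAAT was found in 5 of 6, 5 of 6, 3 of 10 and 2 of 7 windows of the 4 groups in the same order, against 36.4% of all windows. Both motifs stood together in 5 of 6, 4 of 6, 1 of 10 and 0 of 7 windows, against 7.8% of all. No motif overlapped another in a member's window. A match describes letters only, and the data hold no measurement of binding.

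**Figure D3:**
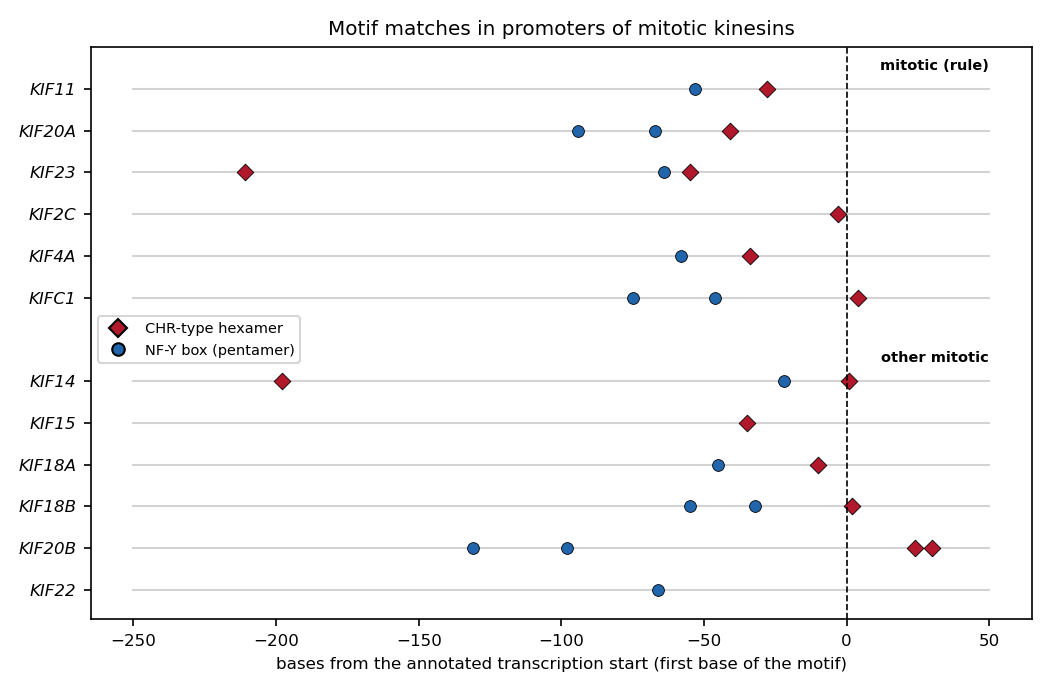
Position of CHR-type hexamers (diamonds) and of the CCAAT pentamer, the NF-Y box (circles), in bases from the annotated transcription start, in the promoter windows of the 12 mitotic kinesins. In KIF11, KIF18A, KIF20A, KIF23 and KIF4A a CHR-type match lies within 55 bases before the start with a CCAAT match upstream of it. KIF2C and KIF15 have no CCAAT match.

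Of the 6 other mitotic kinesins, 3 were called lower in AsPC-1, where 16.3% of all tested genes were called lower. None was called in PANC-1. KIF14, which works with citron kinase in cytokinesis, had 84.9, 76.6 and 77.6 CPM in AsPC-1 siRNA libraries against 94.7 and 94.7 CPM in AsPC-1 controls. KIF18A, which damps chromosome oscillation at the metaphase plate, had 50.1, 51.0 and 51.1 CPM against 59.4 and 62.8 CPM in the same groups. KIF20B, a cytokinesis motor, had 124, 125 and 126 CPM in AsPC-1 siRNA libraries against 147 and 149 CPM in AsPC-1 controls. All 3 genes were lower in every AsPC-1 siRNA library than in either control, with log2 ratios of -0.26 (SE 0.05, edgeR adjusted p = 0.000243), -0.28 (SE 0.06, edgeR adjusted p = 0.000452) and -0.26 (SE 0.04, edgeR adjusted p = 2.44e-05). The KIF20B call was lost in a single fit of all groups (edgeR adjusted p = 0.119, range 5.76e-07 to 0.119). KIF18A shares exon bases with METTL15 on the opposite strand, as do KIF13B, KIF24 and KIFC3 with other genes.

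In PANC-1 KIF14 had 97.2, 96.2 and 96.8 CPM with siRNA against 90.9, 110.5 and 97.8 CPM in controls. KIF18A had 41.1, 36.2 and 42.5 CPM with siRNA against 43.4, 50.5 and 40.9 CPM in controls, and KIF20B 110.5, 94.3 and 121 CPM against 92.7, 134 and 99.0 CPM. The groups overlapped for all 3, with PANC-1 control replicate 2 the highest of each. KIF15, a spindle motor that can act beside KIF11, KIF18B, a depolymerase of astral microtubule ends, and the chromokinesin KIF22 were called in neither line, with log2 ratios of -0.08 to -0.06 in AsPC-1 and -0.10 to -0.08 in PANC-1. The 6 other mitotic kinesins had medians of -0.17 (AsPC-1) and -0.09 (PANC-1). With edgeR 0 of the 6 were called in PANC-1, 0 had an unadjusted p under 0.05 and DESeq2 called 0. Among all tested genes in PANC-1, 4.16% were called higher and 4.92% lower, so the count of 0 was near the background.

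Transport kinesins moved in both directions in AsPC-1. Of 11 tested, 4 rose (KIF16B, KIF1B, KIF5B and KIFC3) and 3 fell (KIF13A, KIF13B and KIF3B). Among all tested genes 16.6% were called higher and 16.3% lower. The median was 0.10 (log2) beside -0.002 over all tested genes. In PANC-1, 1 of 14 rose (KIF16B) and 0 fell, against 4.16% and 4.92% of all tested genes. These PANC-1 counts were near the background, and the median was 0.08 beside -0.001 over all tested genes. KIF16B was the only kinesin called higher in both lines.

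KIF16B (chr20:16272104-16573434, minus strand) binds phosphoinositides of early endosomes through its PX domain. KIF16B had 96.3, 102 and 98.0 CPM in AsPC-1 siRNA libraries against 82.2 and 85.7 CPM in AsPC-1 controls. The PANC-1 values were 61.1, 60.4 and 58.9 CPM with siRNA against 46.0, 53.0 and 49.4 CPM in controls. Every siRNA library lay above every control of its line. The rise was to 116.5% of control in AsPC-1 (log2 ratio 0.22, SE 0.05, edgeR adjusted p = 0.000994) and to 122% in PANC-1 (0.28, SE 0.07, edgeR adjusted p = 0.0173). The AsPC-1 call was lost without control replicate 1 (edgeR adjusted p = 0.0523, range 0.000141 to 0.0523), and the PANC-1 call without siRNA replicate 1 (0.0985) or 2 (0.0524) or control replicate 1 (0.0635) or 3 (0.0571), over a range of 0.00244 to 0.0985.

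KIF1B, a carrier of mitochondria and vesicle precursors, had 72.0, 72.3 and 70.7 CPM in AsPC-1 siRNA libraries against 57.4 and 63.4 CPM in AsPC-1 controls. KIFC3 had 71.5, 72.3 and 68.8 CPM in AsPC-1 siRNA libraries against 55.6 and 60.9 CPM in AsPC-1 controls. KIF5B had 434, 417 and 405 CPM in AsPC-1 siRNA libraries against 384 and 389 CPM in AsPC-1 controls. No siRNA library reached down to a control for these 3 genes, and the rise of KIF5B was the smallest. Their log2 ratios were 0.24 (SE 0.06, edgeR adjusted p = 0.00188), 0.27 (SE 0.06, edgeR adjusted p = 0.000538) and 0.10 (SE 0.03, edgeR adjusted p = 0.0331). The calls of KIF1B and KIFC3 were lost when AsPC-1 control replicate 1 was left out (edgeR adjusted p = 0.126 and 0.0573, the highest of their ranges from 0.000367 and 3.34e-05). That of KIF5B was lost in a single fit of all groups (0.215), with DESeq2 (0.0616) and without control replicate 1 (0.248) or 2 (0.0838) or siRNA replicate 1 (0.126) or 2 (0.0625), over a range of 0.00907 to 0.248.

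In PANC-1 these 3 genes were not called. KIF1B had 113, 108 and 107.5 CPM with siRNA against 105, 115 and 108 CPM in controls, and KIFC3 22.0, 20.6 and 20.4 CPM against 18.7, 18.9 and 21.6 CPM. KIF5B had 325, 320.5 and 336 CPM with siRNA against 265, 326 and 291 CPM in controls (log2 ratio 0.16, SE 0.06, edgeR adjusted p = 0.157). The groups overlapped for each, and without PANC-1 control replicate 2 KIF5B was called (0.24, edgeR adjusted p = 0.00523, range 0.00523 to 0.419).

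KIF3B (chr20:32277664-32335011, plus strand) pairs with KIF3A and the adaptor KIFAP3 in heterotrimeric kinesin-2, the motor of intraflagellar transport. KIF3B had 106, 118 and 112 CPM in AsPC-1 siRNA libraries against 137 and 142.5 CPM in AsPC-1 controls. In PANC-1 it had 179, 184.5 and 177 CPM with siRNA against 188.5, 189.7 and 183 CPM in controls. The AsPC-1 groups were well apart and the PANC-1 groups met. KIF3B stood at 79.3% of control in AsPC-1 (log2 ratio -0.33, SE 0.05, edgeR adjusted p = 4.76e-06) and missed the threshold in PANC-1 (-0.06, SE 0.05, edgeR adjusted p = 0.537). Its partner KIF3A was called in neither line (0.17, SE 0.10 in AsPC-1 and 0.04, SE 0.10 in PANC-1).

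KIF13B had 84.5, 95.8 and 88.3 CPM in AsPC-1 siRNA libraries against 117 and 107 CPM in AsPC-1 controls, a log2 ratio of -0.34 (SE 0.05, edgeR adjusted p = 1.44e-05). In PANC-1 its level was low, with 2.88, 2.37 and 2.66 CPM with siRNA against 3.45, 2.86 and 3.85 CPM in controls, and was not called (-0.36, SE 0.19). The AsPC-1 groups did not overlap and the PANC-1 groups touched. KIF13A, a recycling endosome motor, had 70.7, 73.2 and 74.9 CPM in AsPC-1 siRNA libraries against 85.0 and 75.7 CPM in AsPC-1 controls (-0.16, SE 0.05, edgeR adjusted p = 0.0269). In PANC-1 it had 78.6, 84.2 and 74.6 CPM with siRNA against 72.2, 77.1 and 68.1 CPM in controls, which overlapped (0.13, SE 0.07, edgeR adjusted p = 0.266). The AsPC-1 call of KIF13A was lost without control replicate 1 (-0.08, edgeR adjusted p = 0.479), siRNA replicate 1 (0.0843) or siRNA replicate 2 (0.0561), with DESeq2 (0.128) and in a single fit of all groups (0.177), over a range of 0.0158 to 0.479. KIF1C, KIF3A, KIF3C and KIFC2 were called in neither line, and KIF1A, KIF5A and KIF17 were tested in PANC-1 only and not called; KIF1A there had 302.5, 313 and 288 CPM with siRNA against 282, 252 and 268 CPM in controls (0.17, SE 0.05, edgeR adjusted p = 0.0574).

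Among kinesins of cilia or microtubule dynamics, 1 of 7 tested rose and 2 fell in AsPC-1, with a median of 0.10. Among all tested genes there, 16.6% were called higher and 16.3% lower. In PANC-1 0 of 9 were called, against 4.16% called higher and 4.92% lower, and the median was -0.12. The AsPC-1 count called higher and the PANC-1 count were near these shares. At an unadjusted p under 0.05 there were 3 in PANC-1 (KIF21B, KIF2A and KIF9), and DESeq2 called 0. KIF2A, a microtubule depolymerase used in neurons and at spindle poles, had 128.5, 121 and 122 CPM in AsPC-1 siRNA libraries against 106 and 103 CPM in AsPC-1 controls. PANC-1 libraries had 103, 98.9 and 97.6 CPM with siRNA against 84.8, 91.9 and 89.4 CPM in controls. Every siRNA library lay above every control of its line. The log2 ratio was 0.23 in AsPC-1 (SE 0.04, edgeR adjusted p = 0.00029) and 0.17 in PANC-1 (SE 0.06, edgeR adjusted p = 0.076), and KIF2A was called in PANC-1 without control replicate 2 (edgeR adjusted p = 0.0304) and in a single fit of all groups (0.0264, range 0.0264 to 0.306). KIF2A shares exon bases with IPO11 on its own strand.

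KIF21A, which halts microtubule growth at the cell cortex, had 136.5, 129 and 139.9 CPM in AsPC-1 siRNA libraries against 152 and 151.5 CPM in AsPC-1 controls. KIF24, which caps the mother centriole and holds back ciliation, had 18.6, 18.3 and 19.8 CPM in AsPC-1 siRNA libraries against 23.4 and 22.6 CPM in AsPC-1 controls. Both were lower in every AsPC-1 siRNA library, with log2 ratios of -0.18 (SE 0.04, edgeR adjusted p = 0.00186) and -0.30 (SE 0.09, edgeR adjusted p = 0.0104). In PANC-1 KIF21A had 46.7, 47.1 and 50.2 CPM with siRNA against 53.2, 56.7 and 47.7 CPM in controls, and KIF24 19.1, 21.6 and 21.5 CPM against 25.3, 21.4 and 20.6 CPM. These groups overlapped and neither was called. The AsPC-1 call was lost for KIF21A in a single fit of all groups (edgeR adjusted p = 0.0629, range 0.000846 to 0.0629), and for KIF24 in that fit (0.0521), with DESeq2 (0.0842) and without control replicate 1 (0.087), over a range of 0.00759 to 0.087. KIF7, the Hedgehog regulator at the tip of the cilium, KIF9, KIF21B and KIF27 were not called in either line, and KIF12 and KIF26A were tested in PANC-1 only and not called.

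**Figure D4:**
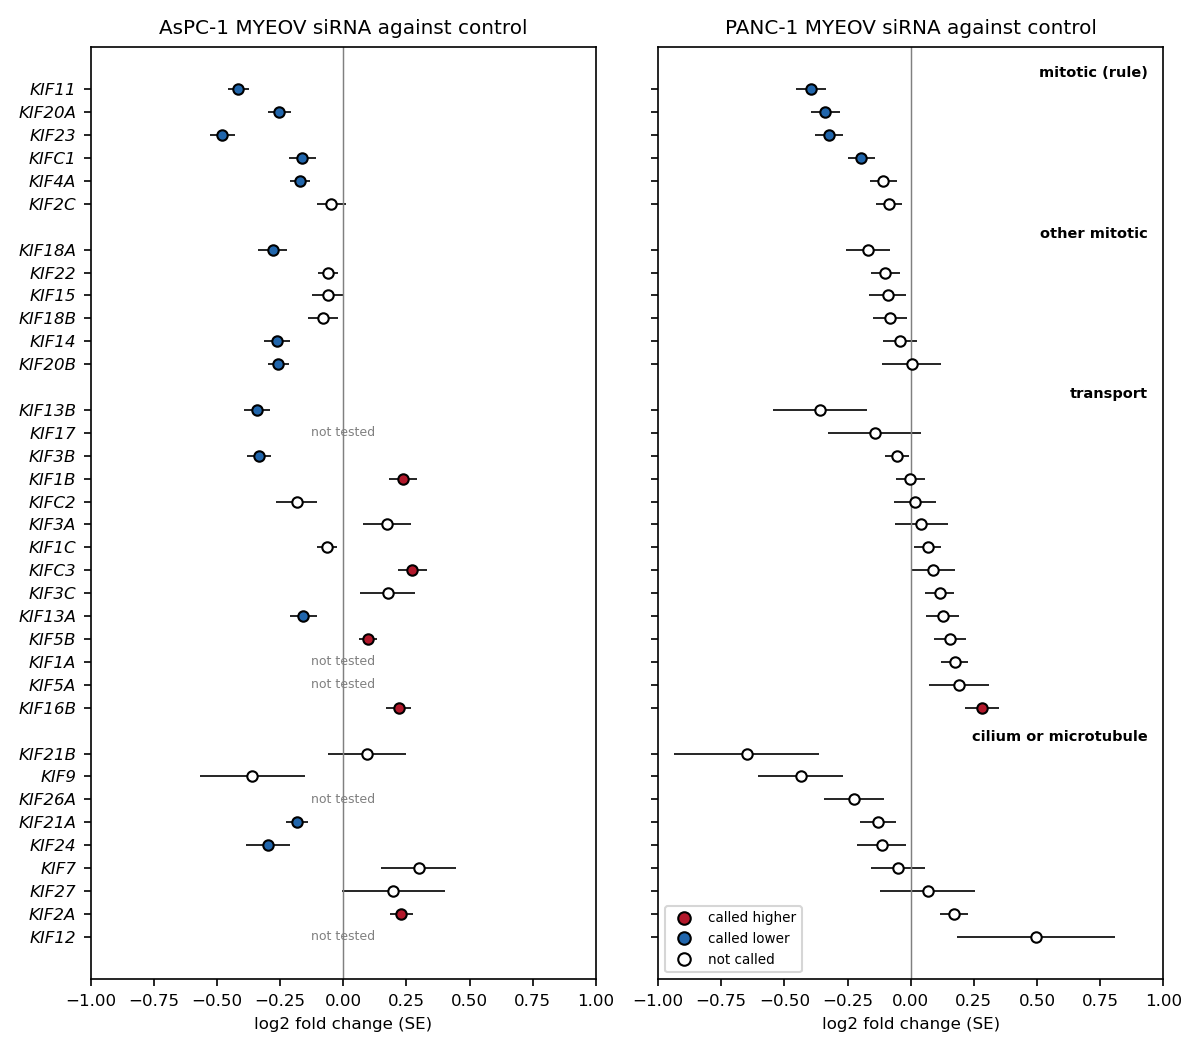
Log2 fold change with SE of each kinesin, MYEOV siRNA against control, in AsPC-1 (left) and PANC-1 (right), grouped by role; filled points passed an edgeR adjusted p under 0.05. All called points of the mitotic groups lie left of 0, at -0.48 to -0.16 in AsPC-1 and -0.39 to -0.20 in PANC-1, while the transport kinesins lie on both sides in AsPC-1.

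The number of kinesins called depended on single libraries. In AsPC-1 it was 18 and fell without control replicate 1, a fit that leaves a single AsPC-1 control library. In PANC-1 it was 5, was 8 without control replicate 2 (3 higher and 5 lower), and was 3 without control replicate 3, siRNA replicate 1 or siRNA replicate 2.

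Mitotic and transport kinesins were set side by side in each line, as a description without a test. The 6 mitotic kinesins of the rule had a median of -0.21 in AsPC-1, where the 11 transport kinesins tested had 0.10, and of -0.26 in PANC-1, where the 14 transport kinesins had 0.08. With the other mitotic kinesins added, the PANC-1 mitotic median was -0.10. The summed level of the 6 mitotic kinesins was 615, 622 and 651 CPM in AsPC-1 siRNA libraries against 765 and 742 CPM in AsPC-1 controls. The sum of the 14 transport kinesins was 1175, 1195 and 1163 CPM in AsPC-1 siRNA libraries against 1170 and 1170 CPM in AsPC-1 controls. The mitotic sum thus separated the groups and the transport sum did not. Divided by each other, the sums gave 0.523, 0.52 and 0.56 with siRNA against 0.654 and 0.634 in AsPC-1 controls.

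In PANC-1 the mitotic sum was 777, 793 and 762 CPM with siRNA against 922, 953 and 893 CPM in controls, and the transport sum was 1437, 1453 and 1431 CPM with siRNA against 1335, 1374 and 1326 CPM in controls. Here both sums separated the groups, in opposite directions. Their ratio was 0.541, 0.546 and 0.533 with siRNA against 0.691, 0.693 and 0.674 in controls. Because abundant genes weigh most in a sum, KIF5B and KIF1A carry much of the PANC-1 transport sum.

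**Figure D5:**
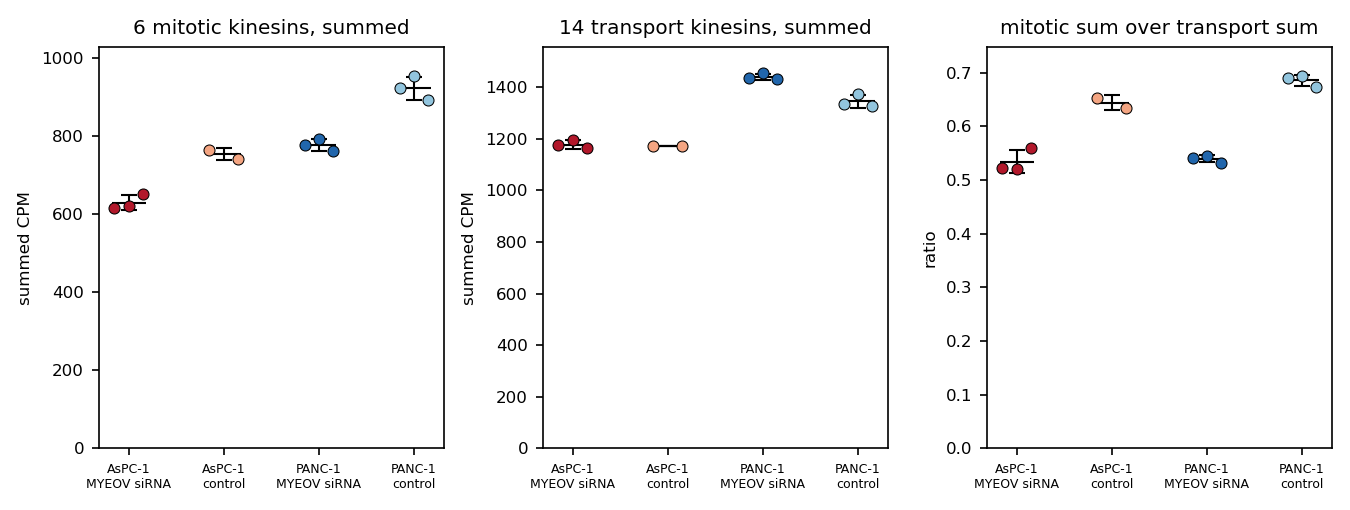
Summed CPM of the 6 mitotic kinesins, summed CPM of the 14 transport kinesins and the ratio of both sums in each library (points), with the group mean and SD (bars). The ratio is 0.52 to 0.56 in AsPC-1 siRNA libraries against 0.634 and 0.654 in AsPC-1 controls, and 0.533 to 0.546 in PANC-1 siRNA libraries against 0.674 to 0.693 in PANC-1 controls.

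Whether a kinesin responded differently in the 2 lines was tested by the interaction in 1 edgeR fit over all groups, as the PANC-1 response minus the AsPC-1 response. Of 35 members, 1 was called, KIF3B, where 4.36% of all 16680 tested genes were called. Its PANC-1 response exceeded the AsPC-1 response (log2 difference 0.27, SE 0.07, edgeR adjusted p = 0.0355). The call was lost without AsPC-1 control replicate 1 (0.0983) or 2 (0.194), AsPC-1 siRNA replicate 1 (0.116) or 3 (0.079), PANC-1 control replicate 3 (0.0762) or PANC-1 siRNA replicate 1 (0.0729), over a range of adjusted p of 0.00782 to 0.194. Without PANC-1 control replicate 2 there were 4 calls, KIF3B, KIF13A (0.34, edgeR adjusted p = 0.0155), KIF14 (0.31, 0.0122) and KIF20B (0.45, 0.002); with all libraries the adjusted p of KIF13A, KIF14 and KIF20B was 0.117, 0.261 and 0.412.

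For the 6 mitotic kinesins of the rule the difference was not called, with 0 at an unadjusted p under 0.05 in edgeR and 0 calls by DESeq2. The differences ran from -0.10 for KIF20A (SE 0.08) to 0.14 for KIF23 (SE 0.08). For KIF11 the difference was 0.01 (SE 0.08). A p that misses the threshold does not show that the lines responded alike.

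The genes that work with these motors were counted from lists of textbook partners. Of 20 partners of mitotic kinesins, 1 rose and 10 fell in AsPC-1, against 16.6% of all tested genes called higher and 16.3% called lower. In PANC-1 0 rose and 5 fell, against 4.16% and 4.92% of all tested genes. CDCA8, the borealin subunit of the chromosomal passenger complex that KIF20A transports, averaged 33.0 ± 0.969 CPM in AsPC-1 siRNA libraries against 76.4 ± 0.49 CPM in AsPC-1 controls (SD, n = 3 and 2), and 69.0 ± 2.61 CPM in PANC-1 siRNA libraries against 124.5 ± 9.63 CPM in PANC-1 controls (n = 3 each). Its log2 ratios were -1.22 (SE 0.06, edgeR adjusted p = 2.22e-14) and -0.85 (SE 0.07, edgeR adjusted p = 2.21e-06). ECT2, the cytokinesis factor recruited by centralspindlin, fell by 0.32 in AsPC-1 and 0.26 in PANC-1 (log2, edgeR adjusted p = 4.49e-06 and 0.021). The mitotic kinesin CENPE, whose symbol lies outside the rule, fell by 0.41 in AsPC-1 and the spindle adaptor KNSTRN by 0.26 (edgeR adjusted p = 5.3e-07 and 0.0055). In PANC-1 HMMR, CCNB1 and BIRC5 also fell, by 0.29, 0.17 and 0.16 (edgeR adjusted p = 0.0336, 0.0352 and 0.0441). CIT, the citron kinase that binds KIF14, was the 1 that rose in AsPC-1 (0.24, SE 0.04, edgeR adjusted p = 0.000178); it was named after its value was seen.

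Of the 20 partners of transport kinesins, 19 were tested in AsPC-1, where 3 rose and 7 fell, and in PANC-1 2 rose and 1 fell of 20. Beside the same shares of all genes (for AsPC-1 16.6% higher and 16.3% lower, for PANC-1 4.16% and 4.92%), the partners called higher in AsPC-1 and lower in PANC-1 were near the background. KLC4, a kinesin-1 light chain, fell by 0.64 in AsPC-1, and KIFAP3, the adaptor of KIF3A and KIF3B, by 0.41 (edgeR adjusted p = 7.55e-08 and 4.45e-05). RHOT1, which encodes the outer mitochondrial membrane protein Miro1 that couples mitochondria to kinesin-1, rose by 0.36 in AsPC-1 (edgeR adjusted p = 0.000345). In PANC-1 the light chain KLC2 rose by 0.38 and MAP7, which recruits kinesin-1 to microtubules, by 0.31 (edgeR adjusted p = 0.0029 and 0.013). MAP7 was also called higher in AsPC-1 (0.27, edgeR adjusted p = 0.00357), where KLC2 was not called.

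Of 12 proliferation and cell-cycle regulators, 1 rose and 5 fell in AsPC-1 (16.6% and 16.3% of all tested genes), and 0 rose and 3 fell in PANC-1 (4.16% and 4.92% of all tested genes). MYBL2, the B-Myb subunit that turns MuvB into an activator of mitotic genes, averaged 162.5 ± 6.92 CPM in AsPC-1 siRNA libraries against 279 ± 3.71 CPM in AsPC-1 controls, and 158 ± 6.3 CPM in PANC-1 siRNA libraries against 225 ± 5.78 CPM in PANC-1 controls. Its log2 ratios were -0.79 (SE 0.04, edgeR adjusted p = 5.08e-14) and -0.52 (SE 0.05, edgeR adjusted p = 2.05e-05). CDKN1A, which encodes the CDK inhibitor p21, fell by 1.01 in AsPC-1 and 0.47 in PANC-1, and CDC20 by 0.46 and 0.25 (edgeR adjusted p = 1.18e-07, 0.00187, 5.5e-09 and 0.0162). MKI67, which encodes the proliferation marker Ki-67, rose by 0.30 in AsPC-1 (SE 0.03, edgeR adjusted p = 1.13e-08), while PANC-1 gave no call. Their part in the kinesin values was not tested.

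Some members carry in their 3′ untranslated region the 7-base word CTCATGT, which earlier results on these same libraries had linked to lower calls, so its counts here are a description. Of the 35 members, 4 carry it, among them KIF11, KIF20A and KIF21B, whose sites are printed as 30 bases of GRCh38 with the word in capitals.
KIF11, chr10:92654454-92654483, plus strand: gaaaggaccatCTCATGTtttttttcttgc
KIF20A, chr5:138187569-138187598, plus strand: acctatgtaatCTCATGTtgttgttttttt
KIF21B, chr1:200970216-200970245, minus strand: gcggggactttCTCATGTgcctgatgtggt

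Of the 4 carriers, 2 were called lower and 1 higher in AsPC-1, and 2 lower and 0 higher in PANC-1. KIF11 and KIF20A fell in both lines, and KIF21B was called in neither. KIF23, whose fall in AsPC-1 was the largest of the family by fold, does not carry the word. Among all tested genes with an annotated 3′ untranslated region, 35.3% of carriers and 14.9% of other genes were called lower in AsPC-1. In PANC-1 these shares were 18.6% and 3.3%. Of these carriers, 229 of 1685 were called higher in AsPC-1 and 63 of 1776 in PANC-1. Carriers made up 14.1% of these genes in AsPC-1 and 14.2% in PANC-1, against 11.4% of the 35 members.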

How the data were processed

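Gene-level read counts of 11 poly(A) RNA-seq libraries were analysed as deposited by the authors; per the submitters' processing notes HISAT2 and HTSeq were used with build hg19, while all 58735 gene IDs are in GENCODE release 29 (GRCh38), which gave names and positions. Versions, strand setting and filters are not given in the sources used here, and counts carry no normalization. No row lacked a gene name. Totals of 12113093 to 15066456 counts set the precision, and intervals cover counting error only.

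Genes were filtered with filterByExpr, scaled by TMM and tested 2-sided with edgeR 4.0.16 (quasi-likelihood, R 4.3.3), with Benjamini-Hochberg adjustment over all tested genes and a threshold of 0.05. The lines were fitted apart for siRNA against control, and all groups together for the control levels and the difference between lines. Alternatives were DESeq2 1.42.0, other scalings and filters, a single fit of all groups, a replicate block and leaving out each library. The code was tested on simulated counts. Members, roles, partner lists and the 3′ untranslated region word were chosen with earlier results of these data known. Per-library values are given for the 6 mitotic kinesins of the rule and every other member called in a siRNA comparison or the difference, ranges or counts for the rest, and up to 4 called genes with the largest change per partner list and line. Sequences came from RefSeq (GRCh38.p14) and GENCODE, and 29 of 35 members had a promoter entry. A called transport partner and a sequence site are not reported here.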

Additional observations from a re-analysis of the deposited data

Results flagged for a closer look

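KIF3B, the kinesin-2 subunit of intraflagellar transport, drew attention because its response to MYEOV siRNA differed between the lines in the test of the difference itself. The PANC-1 response minus the AsPC-1 response was 0.27 (log2, SE 0.07, edgeR adjusted p = 0.0355, range over the alternatives 0.00782 to 0.194). It was the only call among 35 members, where 4.36% of all 16680 tested genes were called, so the count was near the background. The call held in 10 of 17 alternatives. All 3 AsPC-1 siRNA libraries lay below both AsPC-1 controls, while the PANC-1 groups overlapped.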

How the results depend on the processing

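With libraries left out one at a time, AsPC-1 calls ran from 10 to 18, PANC-1 calls from 3 to 8, calls of the difference between lines from 0 to 4 and calls between control cells from 27 to 31. The lowest AsPC-1 count came without control replicate 1, a fit that leaves a single AsPC-1 control library. DESeq2 gave 14 calls in AsPC-1 and a single fit of all groups gave 12, against 18. Leaving out a library moved the median of the 6 mitotic kinesins between -0.23 and -0.21 in AsPC-1 and between -0.28 and -0.23 in PANC-1. With the other mitotic kinesins added, the PANC-1 median was -0.10 (-0.104), and the cause was not tested. The replicate block gave 3 calls in PANC-1, without KIFC1 (edgeR adjusted p = 0.0997) and KIF16B (0.0639), and 0 for the difference between lines, where KIF3B had an edgeR adjusted p of 0.134. Same-numbered libraries did not deviate together (r of -0.016 and -0.01 in AsPC-1, and -0.022, -0.146 and -0.023 in PANC-1), so the numbers were not taken to pair them. Calls held in every alternative for 8 of 18 kinesins in AsPC-1 and 3 of 5 in PANC-1. Over single genes and settings, 746 values kept their side of the threshold, 44 no longer passed it, 6 newly passed it and none of the called values turned sign. The biological coefficient of variation was 6.08% in PANC-1 and 2.77% in AsPC-1, and its part in the number of calls was not tested.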

Other observations

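The opposing microtubule motor, cytoplasmic dynein with dynactin, was counted from a list of 20 genes. In AsPC-1 siRNA cells 2 of them rose and 7 fell, with a median of -0.07 (log2), against 16.6% of all tested genes called higher and 16.3% called lower. In PANC-1 siRNA cells 0 rose and 1 fell, with a median of 0.02, against 4.16% and 4.92% of all tested genes, so the count in PANC-1 was near the background. DYNLL2, a dynein light chain, averaged 27.0 ± 2.71 CPM in AsPC-1 siRNA libraries against 51.7 ± 3.45 CPM in AsPC-1 controls (SD, n = 3 and 2), and 41.9 ± 0.574 CPM in PANC-1 siRNA libraries against 71.1 ± 3.5 CPM in PANC-1 controls (n = 3 each). It fell by 0.95 in AsPC-1 and by 0.76 in PANC-1 (log2, edgeR adjusted p = 5.63e-10 and 3.74e-06). In AsPC-1 the dynactin subunits DCTN5 and ACTR1A fell by 0.43 and 0.30 and the dynein regulator NDEL1 by 0.25 (edgeR adjusted p = 1.1e-08, 2.77e-05 and 0.0137). For ACTR1A the response was higher in PANC-1 by 0.36 in the test of the difference (edgeR adjusted p = 0.0103).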
